A study of Homo sapiens with 46 samples.

Results

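The AAQ disome pulldown is the experiment in which the catalytically dead AAQ form of the release factor eRF1 was pulled down together with pairs of touching ribosomes, and the footprints of those pairs were sequenced. Its members were the 2 AAQ pulldown libraries and the 2 AAQ input libraries of disome footprints, chosen by their labels, so 4 of the 46 libraries of the series. The count of each transcript was divided by the sum of its library's counts and multiplied by 1000000 (CPM). The cells of every library were HEK293 Flp-In T-REx, which derive from human embryonic kidney and have a site for stable insertion of a transgene. AAQ cells carried SBP-tagged AAQ eRF1, WT cells carried SBP-tagged wild-type eRF1, and naive cells carried no tagged factor. The stable lines received tetracycline at 0.2 µg/ml for 48 h, and the labels record none for the untagged cells, so naive cells may differ from both tagged lines in the drug as well as in the tag. Disome and monosome (single ribosome) footprints were taken from 2 AAQ, 2 WT and 1 naive pulldown, each with as many inputs. Control siRNA cells of the same parent line gave 2 disome, 2 monosome and 2 RNA-seq libraries that served here as an outside reading of the same transcripts. The labels record a first and a second, lower dose of siRNA for these cells and no tetracycline. The labels record no removal of the cells' own eRF1 and do not say whether a stable line is a clone or a pool. Nothing in the labels says that replicates came from separate cultures, so the spread that enters each p-value is that of these libraries and could be technical only.

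eRF1 enters the ribosome when a stop codon is in the decoding site, reads that codon, and uses its Gly-Gly-Gln motif to cut the finished protein from its tRNA. The AAQ form has Ala-Ala-Gln in that place, can still enter the ribosome and cannot release the protein, so ribosomes that hold it stay on the mRNA. A ribosome that catches up with a halted one gives a disome, whose footprint covers the mRNA under both. The comparison of pulldown with input asks which coding sequences carry disomes with the tagged factor more, or less, often than disomes in general. Each value is a share of its own library, so the absolute amount of disomes recovered is not measured.

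The AAQ pulldown libraries summed to 1895357 and 798845 counts, and the AAQ inputs to 1233384 and 658171. These sums count a read once for each isoform that shares it, and after isoforms that share reads were joined into 51281 transcripts the pulldowns held 623152 and 263110 counts and the inputs 408776 and 219337. The naive pulldown held 50623 counts in its column, against 2365041 in the naive input. Replicates differed beyond counting error in each tagged group, with a chi-square per degree of freedom of 1.52 in AAQ pulldowns, 1.28 in AAQ inputs, 1.26 in WT pulldowns and 1.27 in WT inputs. No table used here pairs the transcript IDs with genes, so transcripts are given by coding length, and the level of the tagged gene and of cell line markers was not analysed here.

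In the AAQ disome pulldown, short coding sequences were frequent among the transcripts that rose and the longest were absent from them. A total of 143 transcripts were higher in AAQ pulldown than in AAQ input and 155 were lower, which is 1.29% and 1.4% of the 11105 tested and 2.68% together, by edgeR's quasi-likelihood test at an adjusted p of 0.05. The interquartile range of coding length was 111 to 220 codons for the higher transcripts and 137.5 to 690 codons for the lower ones, and the median over all tested transcripts was 351 codons. Of the higher transcripts, 71 (49.7%) had at most 150 codons and 0 had over 1200, against 20.1% and 8.08% of all tested transcripts. Of the lower transcripts, 41 (26.5%) had at most 150 codons and 17 (10.97%) had over 1200. With library scaling by TMM the split was 272 higher and 90 lower, as that scaling moved the median of all tested transcripts up by 0.15 on the log2 scale; with DESeq2 it was 71 and 17. The 298 calls fell to 125 without AAQ pulldown replicate 2, to 99 without AAQ input replicate 1 and to 129 without AAQ input replicate 2, and stood at 217 without AAQ pulldown replicate 1.

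With scaling by column sums, the gains were mostly moderate and the losses larger. The median log2 fold change of pulldown over input was 0.82 among the 143 higher transcripts, -1.09 among the 155 lower ones and -0.08 over all tested transcripts. TMM scaling moved the median of all tested up by 0.15, so the contrast between gains and losses depends on the scaling. Over the 8 disome libraries of tagged lines, the median level was 72.0 CPM for the higher and 45.2 CPM for the lower transcripts. The higher transcripts had a median level of 132.6 CPM in AAQ pulldown and 72.8 CPM in AAQ input, the lower ones 23.7 CPM in AAQ pulldown and 54.0 CPM in AAQ input. Under 40 counts over the 4 AAQ libraries were found for 21 of the 155 lower and 2 of the 143 higher transcripts. Of all 11105 tested transcripts, 4704 had so few. All 143 higher transcripts had both pulldowns above both inputs, and 154 of the 155 lower transcripts had both pulldowns below both inputs. That separation was also common without a call, since 1868 tested transcripts (16.8%) had both pulldowns above and 2770 (24.9%) had both below. One higher transcript, with 283 codons, had 16 counts in the pulldowns and 0 in the inputs. Against a floor of 3 counts over the inputs it was at least 3.74-fold higher (edgeR adjusted p = 0.00538), and the median of the higher transcripts lies below this bound.

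**Figure D1:**
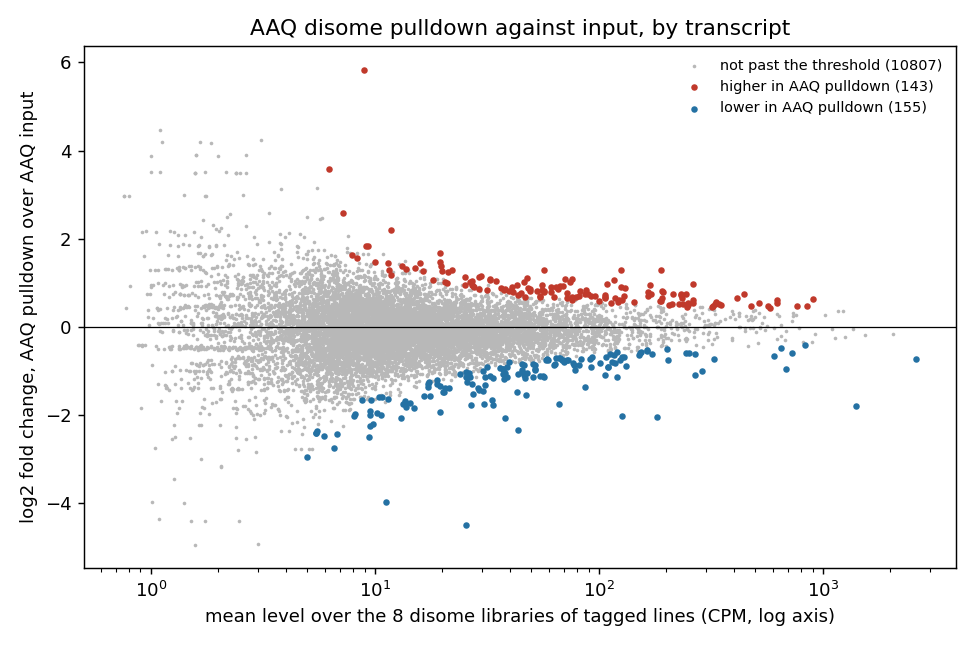
Log2 fold change of AAQ pulldown over AAQ input (vertical axis) against the mean level over the 8 disome libraries of tagged lines (horizontal log axis, CPM), 1 point per tested transcript. The 143 higher and 155 lower transcripts are coloured. At low levels larger folds were needed to pass, and most of the 11105 transcripts lie near a fold of 0.

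Calls were more frequent where counts were high. Among the 4988 transcripts with a mean under 10 CPM, 7 (0.140%) were higher, and among the 107 transcripts over 300 CPM, 17 (15.9%) were higher and 8 (7.48%) were lower. The relation of calls to length differed between levels, which was not tested. Between 100 and 300 CPM, 22 of 73 transcripts with at most 150 codons were higher (30.1%) and 4 were lower (5.48%), against 3 of 150 higher and 21 lower (14.0%) with over 400 codons. Above 300 CPM, 7 of 23 transcripts with at most 150 codons, 10 of 48 with over 150 and up to 400 codons and 0 of 36 with over 400 codons were higher. At 30 to 100 CPM, 11.97% of the sequences with at most 150 codons were higher and 6.41% were lower, against 0.355% higher and 2.96% lower with over 400 codons. At 10 to 30 CPM the shares were 2.19% higher and 2.02% lower for the short sequences, and 0.0988% higher and 0.642% lower for those over 400 codons. Under 10 CPM the short sequences were called higher in 0.0765% and lower in 0.688%, and those over 400 codons in 0.106% and 0.212%. Compared with sequences over 400 codons, short ones thus had the larger share called higher at every level but the lowest, and the larger share called lower at the 3 levels up to 100 CPM.

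Across length classes the share of higher transcripts peaked above 100 and up to 150 codons. In that class 46 of 1129 transcripts were higher (4.07%) and 13 were lower (1.15%). The class of 51 to 100 codons had 22 higher (2.60%) and 18 lower (2.13%) of 847. Coding sequences of 1 to 50 codons had more losses than gains, with 3 higher (1.17%) and 10 lower (3.91%) of 256. Among the 10, ENST00000424089.5 and ENST00000409024.3, both of 43 codons, had identical values, so the same reads may be counted in both. Each had 24 counts over the 4 AAQ libraries, and the least counted of the 10 had 21. Above 150 and up to 400 codons, 62 of 3933 were higher (1.58%) and 48 were lower (1.22%). Above 400 and up to 1200 codons, 10 of 4043 were higher (0.247%) and 49 were lower (1.21%), and over 1200 codons 0 of 897 were higher and 17 were lower (1.90%). The median log2 fold change of a class was lowest in the shortest class, 1 to 50 codons, at -0.23, and highest at 51 to 100 codons, at 0.03. It stood at -0.12 for over 400 and up to 1200 codons and at -0.19 over 1200 codons. TMM scaling shifts the folds as a whole, by 0.15 in the median, so the sign of a class median depends on the scaling and its order carries over better than its value.

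**Figure D2:**
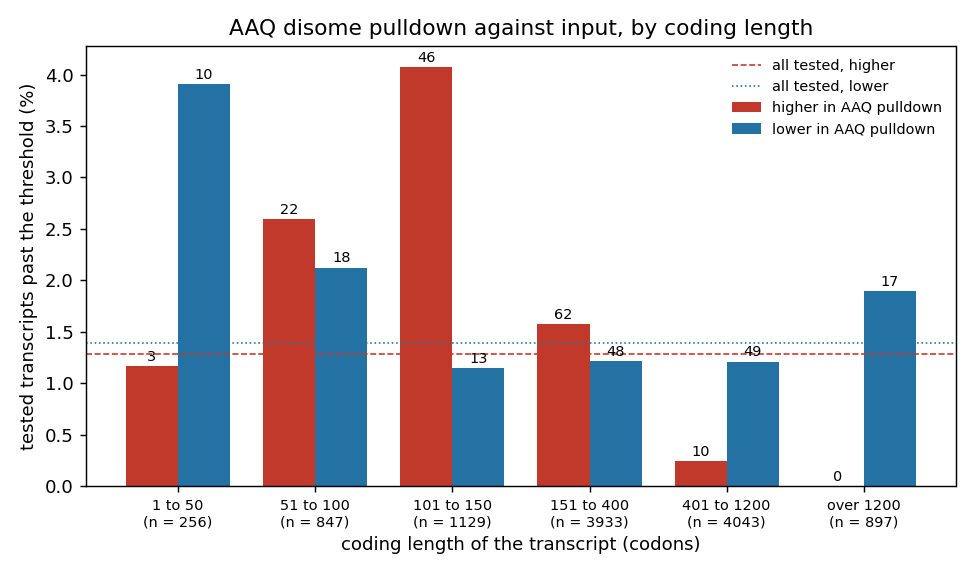
Percentage of tested transcripts past the threshold (vertical axis) in each class of coding length (horizontal axis, codons), higher in AAQ pulldown in red and lower in blue, with the number of transcripts above each bar and dashed and dotted lines for all tested transcripts. Red bars peak in the class that ends at 150 codons (46 transcripts) and reach 0 over 1200 codons, while the blue bar is tallest at 1 to 50 codons (10 transcripts). Those 10 include a pair of 43 codons with identical values.

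The shift toward short sequences was also seen in the share of all disome counts, which needs no call but rests on the same 4 libraries. It is thus a second reading of the same counts. The median log2 fold change of tested sequences with at most 150 codons was -0.02, beside -0.08 over all tested transcripts. Coding sequences of up to 150 codons took 22.54% and 22.42% of the counts in the AAQ pulldowns, against 20.88% and 20.58% in the AAQ inputs. Both pulldowns lay above both inputs, and the difference of the means was 1.75 percentage points (22.5% ± 0.0874 in AAQ pulldown and 20.7% ± 0.214 in AAQ input, SD, n = 2 each). The exact permutation test over the 4 libraries, two-sided, gave p = 0.333, the smallest value that 2 against 2 libraries allow, so this share cannot pass the threshold. Coding sequences of over 1200 codons took 6.48% ± 0.0188 of the counts in AAQ pulldown and 7.64% ± 0.199 in AAQ input. The 1 to 50 codon class took 1.32% in AAQ pulldown and 1.45% in AAQ input, so within the short sequences it went the other way, as in the counts of calls. The gain of the short sequences came from those of 51 to 100 codons, by 0.575 points, and of over 100 and up to 150 codons, by 1.31 points.

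In the share of disome counts, the shift was not seen at this size in WT or naive cells. In WT cells sequences of up to 150 codons took 18.6% ± 0.316 of the counts in pulldown and 18.4% ± 0.0414 in input (SD, n = 2 each). In the single naive pair they took 17.7% in the pulldown (95% Wilson interval 17.1 to 18.2) and 18.6% in the input (18.5 to 18.7). Intervals of shares cover counting error only. The difference between the lines was not tested for this share. AAQ inputs themselves stood above WT inputs, at 20.7% and 18.4%. For the longest class, over 1200 codons, the naive pulldown had 10.1% (9.60 to 10.5) and the naive input 9.02% (8.95 to 9.08), the opposite direction from AAQ cells, and WT cells had 8.61% ± 0.262 in pulldown and 9.01% ± 0.0778 in input.

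**Figure D3:**
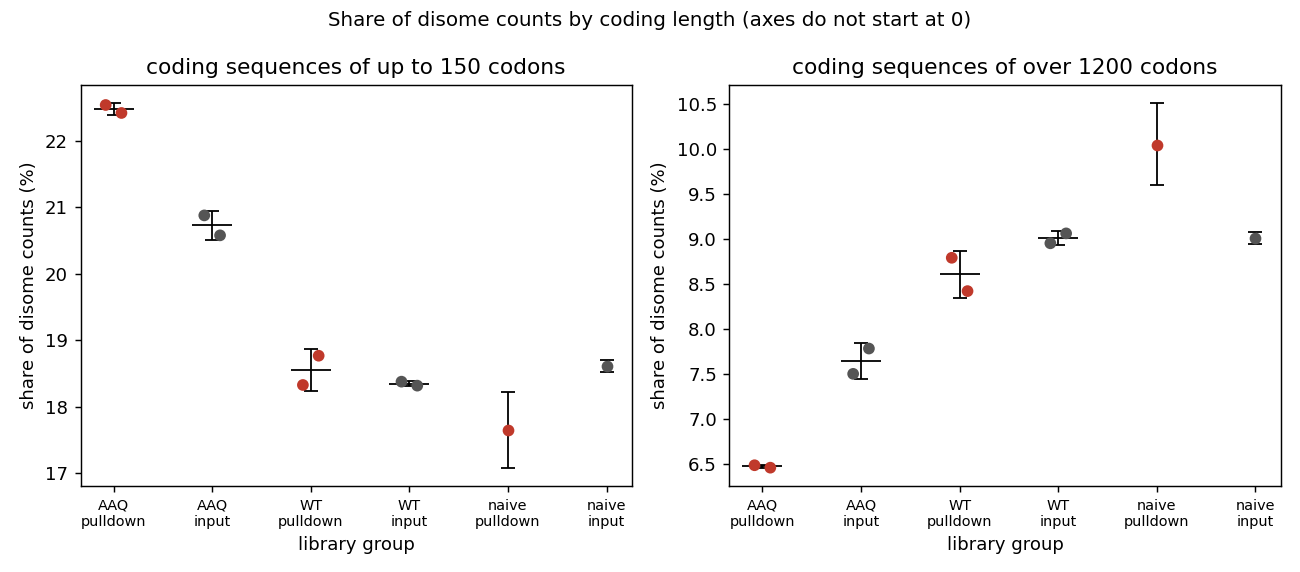
Share of disome counts (vertical axes, %, not starting at 0) on coding sequences of up to 150 codons (left) and over 1200 codons (right) in each group of disome libraries of the eRF1 arm. Points are libraries, bars with caps are the mean and SD of 2 libraries, or the 95% Wilson interval of a single library. Among these 6 groups the AAQ pulldowns hold the highest share of short sequences, 22.54% and 22.42%, and the lowest share of the longest, 6.48% on average.

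The 15 transcripts with the highest folds were taken among called transcripts with at least 40 counts over the 4 libraries and with both pulldowns on 1 side of both inputs, and rested on low counts. The 10 with the lowest folds were taken in the same way. The coding lengths of the 15 highest lay between 81 and 599 codons, and 14 of the 15 had fewer than 300 codons. Their log2 fold changes ran from 1.32 to 2.59. The transcript with the highest fold, of 124 codons, had 10.6 and 26.3 CPM in the AAQ pulldowns, against 3.24 and 1.52 CPM in the AAQ inputs. These levels stand for 20 and 21 counts in the pulldowns and for 4 and 1 in the inputs, and the log2 fold came to 2.59, with an SE of 0.65 and an edgeR adjusted p of 0.00580. This call rested on single libraries, with a log2 fold of 1.97 (edgeR adjusted p = 0.289) without AAQ pulldown replicate 2, 3.34 (0.106) without AAQ input replicate 1 and 2.27 (0.0788) without AAQ input replicate 2. In WT cells its fold was 0.19, with 5.35 and 3.80 CPM in pulldown and 3.05 and 4.10 CPM in input, so the WT groups overlapped.

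Among these 15 the smallest standard error was that of ENST00000360579.11, of 187 codons. It had 45.9 and 52.6 CPM in the AAQ pulldowns, against 19.5 and 7.60 CPM in the AAQ inputs. The pulldowns lay close together and well above the inputs, which differed from each other. In edgeR this gave a log2 fold of 1.67 with an SE of 0.31 and an adjusted p of 2.44e-05. The call held without any one of the 4 libraries, with a log2 fold of 2.65 without AAQ input replicate 1 and 1.31 without AAQ input replicate 2. In WT cells it had 8.02 and 5.97 CPM in pulldown and 10.7 and 6.14 CPM in input, with a log2 fold change of -0.20. The naive pulldown had 0 counts of it, which allows up to 3 counts or 59.3 CPM. Its monosomes were also higher in AAQ pulldown than in AAQ input, by 0.41 on the log2 scale (edgeR adjusted p = 0.0267). A 200-codon transcript had 20.6 and 22.5 CPM in AAQ pulldown and 8.92 and 3.04 CPM in AAQ input, against 0 and 1.09 CPM (0 and 2 counts) in WT pulldown and 4.57 and 2.73 CPM in WT input. Its call, at a log2 fold of 1.63 (edgeR adjusted p = 0.0253), was lost without any one of the 4 AAQ libraries, with edgeR adjusted p between 0.0917 and 0.276 and a fold of 2.77 without AAQ input replicate 1.

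Only 1 of the 15, of 205 codons, also passed the threshold in WT cells, where its log2 fold change was 1.93 and in AAQ cells 1.38, beside 0.765% of all tested transcripts called higher in WT. Its AAQ call (edgeR adjusted p = 0.0497) was lost without AAQ pulldown replicate 2 (log2 fold 0.87), AAQ input replicate 1 (0.87) or AAQ input replicate 2 (1.76). A total of 11 of the 15 had a positive fold in WT, beside 5974 of all 11105 tested transcripts. In monosomes 2 of the 15 were called higher, beside 2.09% of the transcripts tested in both kinds of footprint, and these were the transcripts of 187 and 159 codons, with log2 fold changes of 0.41 and 0.57.

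Most of the lowest transcripts were lower in WT cells too. Among the 10 transcripts with the lowest folds, 9 were past the threshold as lower in the WT pulldown, beside 0.549% of all tested transcripts, and their coding lengths spread widely, from 70 to 1120 codons. ENST00000543204.1, of 70 codons, had 2.11 and 1.25 CPM in the AAQ pulldowns, against 41.4 and 48.6 CPM in the AAQ inputs. It was close to absent from the pulldowns, with 4 and 1 counts, and the log2 fold change was -4.50 ± 0.46 (SE, edgeR adjusted p = 2.9e-19). In WT cells it had 12.04 and 6.51 CPM in pulldown and 48.7 and 43.7 CPM in input, and the naive pulldown had 0 counts of it beside 60 in the naive input. AAQ monosomes barely held it, with 0.533 and 0.434 CPM in pulldown and 1.20 and 0.300 CPM in input. RNA-seq of control siRNA cells gave it 0.325 CPM.

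ENST00000228306.8, of 318 codons, was the most abundant of these 10. It had 421.6 and 366.8 CPM in the AAQ pulldowns, against 1539 and 1191 CPM in the AAQ inputs, which edgeR fitted as a log2 fold of -1.79 with an SE of 0.13 and an adjusted p of 6.83e-39. The loss was deeper in WT cells, with 494.8 and 641.7 CPM in pulldown and 2625 and 3940 CPM in input, a log2 fold of -2.52 with an SE of 0.13. The difference between the lines was 0.73 on the log2 scale (edgeR adjusted p = 0.0480). The naive pair showed it without a tag, with 651.9 CPM in the pulldown and 4879 CPM in the input. In AAQ monosomes it did not pass the threshold, with a log2 fold change of -0.20 and an edgeR adjusted p of 0.0792.

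Other transcripts among the 10 had smaller losses in WT than in AAQ, with no difference past the threshold. A 718-codon transcript had 49.6 and 51.3 CPM in AAQ pulldown, against 201.9 and 206.6 CPM in AAQ input, and 88.3 and 60.2 CPM in WT pulldown, against 197.9 and 162.4 CPM in WT input. Its AAQ monosomes gave 2.54 and 2.75 CPM in pulldown and 7.501 and 3.60 CPM in input, so it was abundant among disomes and rare among single ribosomes. A 219-codon transcript had 68.1 and 48.8 CPM in AAQ pulldown and 260.3 and 238.5 CPM in AAQ input, beside 113.7 and 106.9 CPM in WT pulldown and 301.5 and 324.8 CPM in WT input. The 97-codon transcript was the 1 of the 10 that was not called in WT cells, with a log2 fold change of -1.95 in AAQ and 0.11 in WT, and this difference was not past the threshold (edgeR adjusted p = 0.296).

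**Figure D4:**
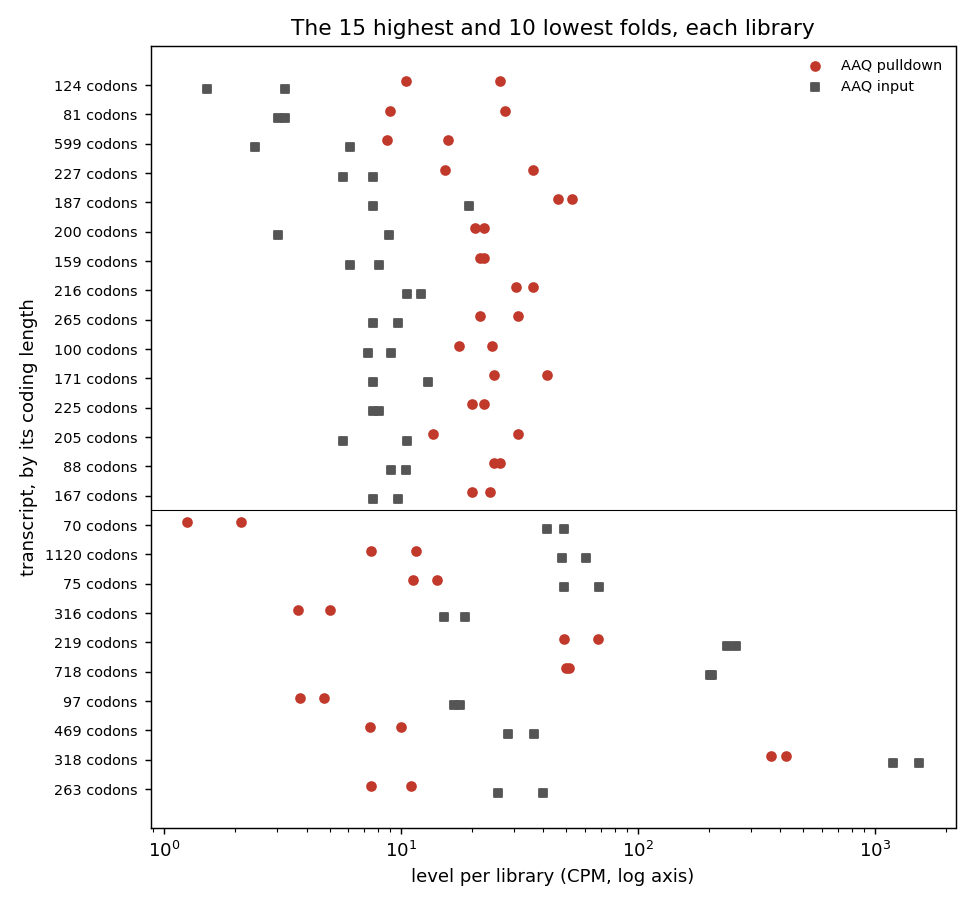
Level in each AAQ disome library (horizontal log axis, CPM) of the 15 transcripts with the highest folds (above the line) and the 10 with the lowest (below it), labelled by coding length; red circles are the 2 pulldowns and grey squares the 2 inputs. The rows were chosen to have both pulldowns on 1 side of both inputs, and the distance between them runs from 10.6 and 26.3 CPM in pulldown against 3.24 and 1.52 CPM in input in the top row to 2.11 and 1.25 CPM in pulldown against 41.4 and 48.6 CPM in input for the 70-codon transcript.

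The 5 most abundant transcripts in the AAQ pulldown did not move together. A 336-codon transcript had 2107 and 1985 CPM in AAQ pulldown and 1686 and 1516 CPM in AAQ input, a log2 fold change of 0.35 that did not pass (edgeR adjusted p = 0.0987). A 642-codon transcript (0.37, adjusted p = 0.0754, edgeR) and a 137-codon one (-0.17, adjusted p = 0.617, edgeR) did not pass either. A 294-codon transcript was lower, with 1997 and 1720 CPM in AAQ pulldown and 2934 and 3220 CPM in AAQ input. Its log2 fold change was -0.72 in AAQ disomes, -0.44 in WT disomes and -0.70 in AAQ monosomes, all past the threshold. A 230-codon transcript was higher, with 1447 and 1910 CPM in AAQ pulldown and 1081 and 1089 CPM in AAQ input (0.62, edgeR adjusted p = 1.2e-04). Without AAQ pulldown replicate 2 this call was lost, at a log2 fold of 0.42 (edgeR adjusted p = 0.167). Its monosomes went the other way, by -0.38 on the log2 scale (edgeR adjusted p = 2.17e-07), so the disome and monosome folds of this transcript had opposite signs.

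The WT pulldown gave fewer calls. In WT cells 85 transcripts were higher (0.765%) and 61 were lower (0.549%) than in input. Of the 85 higher ones, 39 had at most 150 codons and 1 had over 1200. Short sequences were thus frequent among the gains in WT cells as well as in AAQ cells. Of the 61 lower ones, 16 had at most 150 codons and 6 had over 1200. Of the 143 transcripts higher in AAQ, 17 were also higher in WT, out of the 85 there, and 1 was lower. Of the 155 transcripts lower in AAQ, 37 were also lower in WT, out of the 61 there, and 0 were higher. The AAQ-higher transcripts had a median log2 fold change of 0.28 in WT with 108 positive, and the AAQ-lower ones -0.44 with 19 positive, beside 0.04 over all tested transcripts. Across the 1142 transcripts with a mean of at least 50 CPM, fold changes in AAQ and WT correlated with a Pearson's r of 0.52 and a Spearman's rho of 0.43. Folds correlated with coding length with a rho of -0.32 in AAQ and -0.10 in WT. These correlations are across transcripts of the same libraries, which are not independent replicates.

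Direct tests of AAQ enrichment minus WT enrichment found 9 transcripts past the threshold (0.081%), 7 with a higher (0.063%) and 2 with a lower (0.018%) enrichment in AAQ. At an unadjusted p under 0.05 there were 742. The 7 higher ones had 104 to 318 codons, and 5 of them were also among the 143 higher in AAQ. The count depended on the scaling and on single libraries, with 30 under TMM, which moved the median difference by 0.19 on the log2 scale, and 2 under DESeq2. It was 2 without AAQ pulldown replicate 2 or without AAQ input replicate 2, 5 without WT pulldown replicate 1, 4 without WT pulldown replicate 2, 3 without WT input replicate 1 and 4 without WT input replicate 2.

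ENST00000267884.11, of 137 codons, had the largest of the 7 positive differences. It had 324.5 and 538.3 CPM in the AAQ pulldowns, against 182.4 and 161.1 CPM in the AAQ inputs. In WT cells it had 85.6 and 70.0 CPM in pulldown, against 79.2 and 81.9 CPM in input. The AAQ pulldowns stood above every other disome library of the eRF1 arm and differed from each other, while the WT groups overlapped. The log2 fold change was 1.28 ± 0.15 in AAQ and -0.09 ± 0.19 in WT, a difference of 1.38 ± 0.25 (SE, edgeR adjusted p = 1.13e-04). The difference no longer passed without AAQ pulldown replicate 2 (1.001, edgeR adjusted p = 0.130) or WT pulldown replicate 2 (1.20, edgeR adjusted p = 0.0934). AAQ monosomes gave no call, with a log2 fold change of 0.04 and 59.5 and 55.4 CPM in pulldown beside 54.3 and 58.2 CPM in input.

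ENST00000355057.2, of 104 codons, was past the threshold as lower in WT and was not called in AAQ. It had 364.6 and 334.2 CPM in AAQ pulldown and 394.0 and 381.4 CPM in AAQ input, against 117.7 and 132.9 CPM in WT pulldown and 274.1 and 346.0 CPM in WT input. The log2 fold change was -0.15 ± 0.14 in AAQ and -1.31 ± 0.15 in WT, a difference of 1.16 ± 0.21 (SE, edgeR adjusted p = 1.13e-04). It no longer passed without WT input replicate 2 (0.96, edgeR adjusted p = 0.0665). The naive pulldown held 9 counts of it at 177.8 CPM, beside 307.8 CPM in the naive input. A further 137-codon transcript was higher in AAQ pulldown, with 1540 and 1545 CPM against 1182 and 1048 CPM in AAQ input, and lower in WT pulldown, with 165.8 and 163.8 CPM against 268.0 and 215.0 CPM in WT input. Its difference was 0.99 ± 0.20 on the log2 scale (SE, edgeR adjusted p = 0.00156), and it no longer passed without AAQ input replicate 2 (0.91, edgeR adjusted p = 0.110) or WT input replicate 1 (0.85, edgeR adjusted p = 0.115).

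The 131-codon transcript, with a difference of 1.096 ± 0.24 (edgeR adjusted p = 0.0134), and the 200-codon transcript, with 1.097 ± 0.25 (edgeR adjusted p = 0.0214), had a called gain in AAQ and a negative fold in WT that did not pass. The 200-codon transcript had 514.4 and 498.2 CPM in AAQ pulldown and 327.6 and 275.0 CPM in AAQ input, against 38.8 and 61.8 CPM in WT pulldown and 89.8 and 56.6 CPM in WT input. The 131-codon difference no longer passed without AAQ pulldown replicate 2, AAQ input replicate 2 or any one of the 4 WT libraries (1.003 to 1.11, edgeR adjusted p 0.0631 to 0.148). The 200-codon difference no longer passed without either AAQ pulldown, AAQ input replicate 2, WT pulldown replicate 1 or WT input replicate 1 (0.82 to 1.11, edgeR adjusted p 0.0594 to 0.527). This 200-codon transcript is a different one from the 200-codon one among the 15 highest folds. The 131-codon transcript and this 200-codon one were also past the threshold in the AAQ monosome pulldown, with log2 fold changes of 0.25 and 0.28.

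ENST00000380118.7, of 395 codons, had the most negative difference, at -3.18 ± 0.72 (SE, edgeR adjusted p = 0.0198). It had 12.1 and 6.26 CPM in AAQ pulldown and 13.8 and 18.2 CPM in AAQ input, against 9.36 and 17.4 CPM in WT pulldown and 1.52 and 2.73 CPM in WT input. The WT inputs held 1 and 4 counts of it, and the difference no longer passed without AAQ pulldown replicate 2, AAQ input replicate 2, WT pulldown replicate 2 or either WT input (-2.53 to -3.77, edgeR adjusted p 0.0787 to 0.478). The remaining 3 calls were ENST00000228306.8 (0.73), the abundant 230-codon transcript (0.77) and a 445-codon transcript, ENST00000568584.5. The last had a log2 fold change of -1.48 in AAQ and 0.56 in WT (difference -2.04, edgeR adjusted p = 0.0334). A second 445-codon transcript, ENST00000308911.8, had the same mean levels in AAQ, 9.36 CPM in pulldown and 30.95 CPM in input. Its difference of -1.88 did not pass (edgeR adjusted p = 0.0877).

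**Figure D5:**
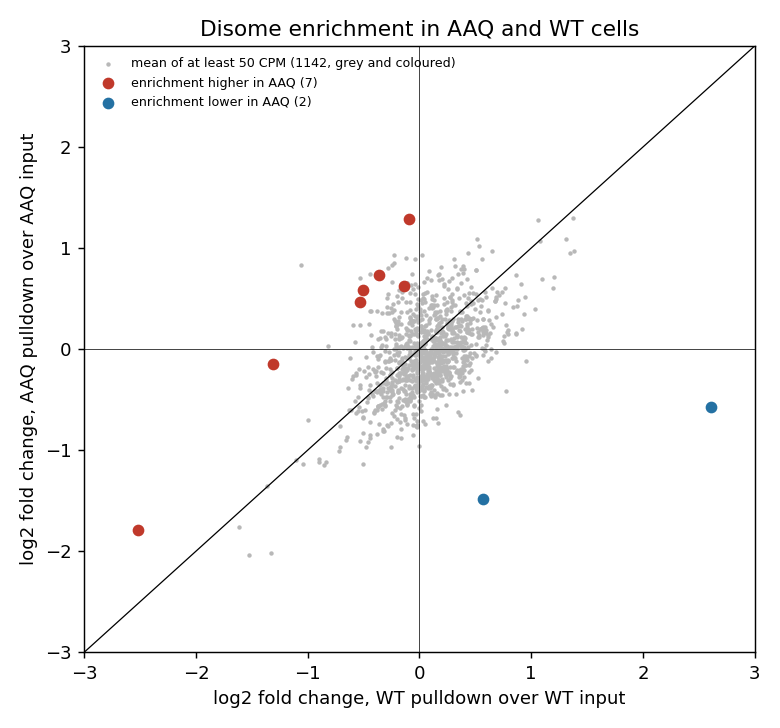
Log2 fold change of pulldown over input in AAQ cells (vertical axis) against that in WT cells (horizontal axis) for the 1142 transcripts with a mean of at least 50 CPM (grey) and the 9 transcripts whose enrichment differed (coloured, at any level); the diagonal marks equal folds. The 7 red points lie above the diagonal and the 2 blue points below it, and 1 blue point, ENST00000380118.7, has a WT fold of 2.61.

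The levels of the higher transcripts also differed between the lines before any pulldown. The median log2 ratio of AAQ input over WT input was 1.05 for the 143 higher transcripts, with 120 positive, and -0.06 for the 155 lower ones, beside -0.16 over all tested transcripts. In pulldown the ratio of AAQ over WT had a median of 1.69 for the higher transcripts and -0.68 for the lower ones. These ratios share libraries with the comparison that chose the transcripts, so they are given as a description. The 143 transcripts took 9.77% and 11.15% of the counts in AAQ pulldowns and 6.62% and 6.40% in AAQ inputs. In WT cells they took 3.68% ± 0.12 in pulldown and 2.97% ± 0.26 in input, and in disomes of control siRNA cells 6.63% ± 0.010 (SD, n = 2 each).

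Against the naive pair, the enrichment could be tested only at low depth. The naive comparison itself gave 1 higher (0.009%) and 2 lower (0.018%) transcripts, 0.027% together. AAQ enrichment minus naive enrichment gave 0 higher and 2 lower transcripts (0.018%) by edgeR, with 491 at an unadjusted p under 0.05 and 7 calls by DESeq2. TMM scaling moved the median of this difference by 1.14 on the log2 scale and gave 78 higher and 1 lower, and without AAQ input replicate 2 the count was 0. The 143 AAQ-higher transcripts took 3.83% of the naive pulldown (95% Wilson interval 3.55 to 4.13; 645 counts) and 2.62% of the naive input. As a set their share was thus higher in a pulldown that had no tagged factor too. All tested transcripts together took 96.6% of the naive pulldown and 88.7% of the naive input, so part of this rise was common to all of them. In the naive pair 93 of the 143 had a positive fold, beside 5684 of all 11105 tested transcripts. The naive pulldown had 0 counts for 32 of the 143, beside 4043 of all 11105 tested transcripts. A single count in the naive pulldown, 19.75 CPM, could carry a transcript past the filter on low counts. Without the naive libraries 7816 transcripts were tested. The numbers over all tested transcripts were thus partly set by this library, and no conclusion is drawn from the 2 comparisons with them. The 155 AAQ-lower transcripts took 3.54% of the naive pulldown and 6.79% of the naive input, so as a set they were lower in a pulldown that had no tagged factor as well. ENST00000228306.8 alone had 33 counts in the naive pulldown and 11540 in the naive input. In the naive pair 42 of the 155 had a positive fold, and 44 had 0 counts in the naive pulldown.

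Single ribosomes in the same cells gave a related but different picture. The AAQ monosome pulldown had 249 higher (1.43%) and 636 lower (3.64%) transcripts of 17454 tested, 5.07% together, against its own input. Among the 10242 transcripts tested in both kinds of footprint, 214 were higher (2.09%) and 530 were lower (5.17%) in monosomes. Of the 143 disome-higher transcripts, 30 were also higher and 3 were lower in monosomes. Of the 143 disome-lower transcripts that could be tested in monosomes, 36 were also lower and 1 was higher. The median monosome fold was 0.13 for the disome-higher and -0.18 for the disome-lower transcripts, beside -0.03 over all. Disome and monosome folds correlated across the 1142 transcripts with a Pearson's r of 0.37, and monosome folds correlated with coding length with a rho of -0.31. Sequences of up to 150 codons took 21.0% ± 0.339 of the monosome counts in AAQ pulldown and 20.3% ± 0.0414 in AAQ input, and those over 1200 codons 7.17% ± 0.14 in AAQ pulldown and 7.97% ± 0.137 in AAQ input (SD, n = 2 each). WT monosomes shifted the same way. There the short sequences took 19.62% ± 0.0586 in WT pulldown and 18.85% ± 0.375 in WT input. Those over 1200 codons took 7.77% ± 0.0433 in WT pulldown and 8.53% ± 0.243 in WT input (SD, n = 2 each).

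A high AAQ input was part of what put transcripts among the lower ones, so their disome levels in AAQ input are a description only. In AAQ inputs 65 of the 155 lower transcripts (41.9%) had a disome level over 4 times their monosome level in CPM, against 10 of the 143 higher ones (6.99%) and 1224 of all 11105 tested transcripts. The median log2 ratio of disome over monosome level in AAQ input was 1.68 for the lower transcripts, 0.16 for the higher ones and 0.33 over all. In the control siRNA libraries, which the comparison does not use, the median log2 ratio of disome over monosome level was -0.89 for the lower transcripts and -0.04 for the higher ones, beside -0.50 over all tested transcripts, and 50 of the 155 lower transcripts lay above the median of all tested. The lower transcripts took 3.16% ± 0.26 of the AAQ pulldown and 5.80% ± 0.13 of the AAQ input, and 1.90% ± 0.080 of the control disomes. The 718-codon transcript, at 201.9 and 206.6 CPM in AAQ inputs, had 0 counts in the control disome libraries, whose columns summed to 4715435 and 2493885.

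In the control cells the higher transcripts had median levels of 46.0 CPM in RNA-seq, 61.8 CPM in monosomes and 59.7 CPM in disomes, and the lower ones 12.2 CPM in RNA-seq, 16.3 CPM in monosomes and 5.44 CPM in disomes. The median log2 ratio of monosomes over RNA was 0.29 for the higher transcripts and 0.23 for the lower ones, beside 0.03 over all tested transcripts, a difference that was not tested. Control and eRF1 libraries belong to separate arms of the study.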

How the data were processed

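The deposited files give a whole-number count per Ensembl transcript, with no normalization by the authors recorded. RNase I digestion, pelleting of ribosomes, size selection of footprints and removal of ribosomal RNA came before sequencing, per the labels' protocols. Per the submitters' processing notes, STAR 2.7.0a, UMI-tools 1.1.1 and the build hg38 were used. For the counter and the annotation, the sources used here give no name. The second value of each line was read as the coding length in codons.

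The files count shared reads in each isoform. Of 97742 transcripts with counts, those within 40 lines of each other were joined where their replicate differences correlated above 0.7 (at least 500 counts), or where counts were identical within such a block. Of adjacent transcripts 53.8% passed this limit, against 0.0895% of pairs far apart in the files. The most counted transcript stood for each group. On simulated loci 94.4% of isoforms were joined and 5.28% of loci merged with another. Only simulated isoforms with at least 500 counts were scored, so joining below that limit was not measured. In the data 60189 of the 97742 transcripts reached it. Several of the joined transcripts may still stand for the same gene, and reads shared with near-identical copies elsewhere could not be told apart.

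Counts were tested with edgeR 4.0.16 (R 4.3.3; robust quasi-likelihood, minimum count 10, two-sided, Benjamini-Hochberg over all tested transcripts) in 1 fit of the 10 disome libraries of the eRF1 arm. Each library was scaled by its count column's sum, with no further factor. Monosome libraries had their own fit. Naive groups hold 1 library each and were assumed to vary like the others. The filter on low counts goes by the smallest group, so 1 library above its limit was enough. On simulated data for the AAQ disome comparison with 200 of 10100 transcripts changed, 90% were recovered at a log2 change of 1 and 100% at 2, with 2.16% and 4.30% of calls false. The changed transcripts were drawn only from those with an average of at least 50 CPM, so recovery at lower levels was not measured. The median level of all tested transcripts was 11.2 CPM over the 8 disome libraries of tagged lines. DESeq2 1.42.0 and other settings were alternatives.

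Named transcripts were the 15 highest and 10 lowest folds among called transcripts with at least 40 counts and no overlap of pulldowns and inputs, the 5 most abundant in AAQ pulldown, and the 6 differences from WT with the lowest p. The 445-, 230- and 318-codon differences, the 200-codon transcript among the 15 and the 283-codon transcript were picked for description after their values were seen. Members and lists were chosen with earlier results of these data known. The gene lists, markers and check of the tagged gene that the design named need a table of transcripts and genes and were not used here.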

Additional observations from a re-analysis of the deposited data

Results flagged for a closer look

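The enrichment in AAQ pulldown minus that in WT pulldown was past the threshold for 9 transcripts by edgeR's quasi-likelihood test of the difference itself, which is what singles them out. Among the 6 with the lowest p, the log2 difference was 1.16 for ENST00000355057.2, 1.38 for ENST00000267884.11, 0.99 for a second 137-codon transcript, 1.096 for the 131-codon transcript, 1.097 for the 200-codon transcript and -3.18 for ENST00000380118.7. No group of libraries had the 4 samples that a check for an outlying sample needs.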

How the results depend on the processing

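The 298 calls in AAQ disomes became 88 with DESeq2, 176 with no filter on low counts and 824 with transcripts not collapsed, and lay between 99 and 217 when a library was left out. TMM gave 362, of which 75.1% were higher against 48.0% with column sums, and DESeq2 80.7%; TMM kept all 143 higher calls and 90 of the 155 lower ones. The share of higher calls with at most 150 codons lay between 43.8% and 61.7% in every setting run, above that of the tested transcripts each time, and calls over 1200 codons among the higher ones numbered 0 except for 1 each with TMM, the replicate block and transcripts not collapsed. The 9 differences from WT became 30 with TMM, 2 with DESeq2, 3 with no filter on low counts, 16 with the replicate block and 15 with transcripts not collapsed, and 2 to 10 when a library was left out. The 2 differences from naive cells became 79 with TMM, 7 with DESeq2, 1 with no filter on low counts, 7 with transcripts not collapsed and 1 with a joining limit of 0.5, and 0 to 2 when a library was left out. The rise of 1.75 points in the share of short sequences was 0.446 with a limit of 100 codons, 2.66 with 200 codons and 2.09 with transcripts not collapsed, and 1.60 to 1.90 when a library was left out. The joining limits of 0.5 and 0.9 and the scaling by collapsed sums were chosen after seeing the data. Same-numbered pulldowns and inputs deviated together with a correlation of 0.147 in AAQ and 0.128 in WT cells, but with 2 pairs per line the samples share only a number; the replicate block gave 388 calls in AAQ disomes, 185 higher and 203 lower. Of 487 values for named transcripts under the alternatives, 386 kept direction and side of the threshold, 95 kept direction and no longer passed, 6 newly passed and 0 reversed. DESeq2 gave no value for 22 more, the joining limit of 0.5 for 11 and the fit of the 4 AAQ libraries alone for 2. The cause of these changes was not tested. Depth limits the naive comparison, with 16864 counts over joined transcripts in the naive pulldown.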
